A study of Mus musculus with 31 samples.

Results

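The genes described here encode the nuclear subunits of the oxidative phosphorylation machinery. They were chosen by symbol alone, as protein-coding mouse genes named Nduf (letters a, b, c, s or v and a number), Sdha to Sdhd, Uqcr, Cox4 to Cox8 or Atp5, after the gene identifiers of the files had been matched to the mm10 annotation. The rule found 83 members among 29267 genes: 35 of complex I, 4 of complex II, 8 of complex III, 19 of complex IV (Ndufa4, which is counted with complex IV, included) and 17 of complex V. The 13 protein genes of the mitochondrial genome were not analysed here.

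Oxidative phosphorylation takes place in the inner mitochondrial membrane. Complexes I (NADH dehydrogenase) and II (succinate dehydrogenase) pass electrons to ubiquinone, complex III (cytochrome bc1) passes them to cytochrome c, and complex IV (cytochrome c oxidase) passes them to oxygen. Complex V (ATP synthase) uses the proton gradient that complexes I, III and IV build to make ATP. The transition of fibroblasts to pluripotent cells is known for a shift between respiration and glycolysis, and several complex IV subunits exist as pairs of genes, one widely expressed and the other restricted to a tissue or to low oxygen.

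RNA-seq was done on mouse cells of the strain 129/OG2. Mouse embryonic fibroblasts (MEF, passage 2, no treatment, 2 libraries) and embryonic stem cells (ESC, passages 17 and 19, no treatment, 1 library each) were the start and end references. Cells undergoing reprogramming induced by OKSM (passage 0) carried either Flag, taken here as the control, or Tet1CD, were kept in DMSO, in vitamin C (Vc) or in DKG, and were collected on day 3 or day 8, which gave 12 groups of 2 libraries. The remaining 3 libraries were MEF kept for 3 days in DMSO, Vc or DKG, 1 library each, and the title of the last says 2DG while its treatment says DKG, so its medium is uncertain. The labels spell out neither DKG nor the content of Tet1CD, give no dose, and leave unsaid whether a group's 2 libraries stem from independent cultures. All p-values therefore measure library-to-library spread, which could be purely technical. Replicates are called here by the numbers in their labels, 0824 and 0826, and the ESC libraries by 0822 (passage 17) and 0819 (passage 19), although the deposited files of the ESC libraries carry these numbers the other way round.

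Promoter windows of the members are shown first, because they let the reader see which regulatory letters members have in common and which members lack them. RefSeq windows on GRCm38.p6, each from 250 bases before to 50 bases after the annotated start (300 bases), were found for 66 of the 83 members. Nuclear respiratory factor 1 (NRF1), the ETS factor GABPA (also called NRF2) and YY1 are classical regulators of nuclear respiratory genes. The letters GCGCANGCG (NRF1), CCGGAAG (ETS family) and AANATGGCG (YY1) were searched on both strands. The windows below are from Ndufs6 (chr13:73328433-73328732, minus strand, NRF1 and YY1 letters), Sdhd (chr9:50603800-50604099, minus strand, NRF1 and ETS letters), Atp5b (chr10:128083057-128083356, plus strand, YY1 letters), Cox6b1 (chr7:30626065-30626364, minus strand, ETS letters), and Cox6b2 (chr7:4753045-4753344, minus strand) and Cox7a1 (chr7:30183921-30184220, plus strand), isoform genes of complex IV with wide differences, both among the members that hold none of the 3. Capitals mark a match, on either strand, and each window is written from 5′ to 3′ on the gene's strand.
Ndufs6: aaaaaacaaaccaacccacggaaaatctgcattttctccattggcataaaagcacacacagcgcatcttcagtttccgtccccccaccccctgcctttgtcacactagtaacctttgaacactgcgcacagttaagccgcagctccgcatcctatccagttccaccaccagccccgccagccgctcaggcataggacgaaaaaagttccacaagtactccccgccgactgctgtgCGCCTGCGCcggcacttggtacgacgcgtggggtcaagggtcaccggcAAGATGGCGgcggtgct
Sdhd: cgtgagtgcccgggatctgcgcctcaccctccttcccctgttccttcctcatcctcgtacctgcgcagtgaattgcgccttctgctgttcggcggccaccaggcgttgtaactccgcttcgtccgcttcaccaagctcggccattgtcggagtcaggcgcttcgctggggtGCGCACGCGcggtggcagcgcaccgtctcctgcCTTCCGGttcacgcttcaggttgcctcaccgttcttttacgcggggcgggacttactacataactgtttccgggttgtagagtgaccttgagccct
Atp5b: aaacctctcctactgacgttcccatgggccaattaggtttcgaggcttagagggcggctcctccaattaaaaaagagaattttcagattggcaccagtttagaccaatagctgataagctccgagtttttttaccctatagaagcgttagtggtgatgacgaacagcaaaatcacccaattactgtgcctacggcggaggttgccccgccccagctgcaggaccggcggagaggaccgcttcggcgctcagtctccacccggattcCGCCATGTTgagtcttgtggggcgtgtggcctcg
Cox6b1: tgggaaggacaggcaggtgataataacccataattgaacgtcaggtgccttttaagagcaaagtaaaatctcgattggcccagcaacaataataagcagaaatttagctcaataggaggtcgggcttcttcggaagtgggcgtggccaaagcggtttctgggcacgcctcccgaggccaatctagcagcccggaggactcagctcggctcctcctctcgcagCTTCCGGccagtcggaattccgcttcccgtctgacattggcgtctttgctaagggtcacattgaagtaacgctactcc
Cox6b2: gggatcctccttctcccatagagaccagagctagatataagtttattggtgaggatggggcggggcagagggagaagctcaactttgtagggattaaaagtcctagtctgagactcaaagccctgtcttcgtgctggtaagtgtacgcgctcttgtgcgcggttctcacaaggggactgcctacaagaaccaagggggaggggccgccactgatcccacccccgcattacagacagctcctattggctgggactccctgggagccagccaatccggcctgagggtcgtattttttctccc
Cox7a1: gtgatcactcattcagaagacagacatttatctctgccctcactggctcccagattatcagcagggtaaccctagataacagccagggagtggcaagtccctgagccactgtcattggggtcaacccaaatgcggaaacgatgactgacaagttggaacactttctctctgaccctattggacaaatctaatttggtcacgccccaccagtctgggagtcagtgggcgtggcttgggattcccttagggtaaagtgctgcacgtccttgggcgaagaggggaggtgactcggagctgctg

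The NRF1 letters were in the windows of 20 of the 66 members (30.3%), against 7.03% of 27025 symbols in the same table. The ETS letters were in 16 (24.2% against 9.93%) and the YY1 letters in 10 (15.2% against 2.76%), and 38 of the 66 held at least 1 of the 3. A TATA box (TATAAA, both strands) was in 7 (10.6% against 15.7%). The median GC content of the members' windows was 57.2%, against 52.7% for all symbols. The match is a description of letters and not of binding. Of the 17 matched members that were higher in ESC than in MEF by the test given further on, 6 held the NRF1 letters, 2 the ETS letters and 2 the YY1 letters. Cox7a1, which held none of the 3, is 1 of the 17, and its call follows from the filter on low counts described below.

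The libraries held between 3953297 and 6818060 counts. Of the 83 members, 79 passed the filter on low counts and were tested among 14914 genes, and 77 of these passed it in all 14 replicated groups. Cox4i2 passed only through day 8 libraries, with both libraries of a group past the filter in Flag and Tet1CD cells in Vc alone. Cox7a1 passed only through ESC. The calls of these 2 genes in contrasts with those libraries follow from the filter, and their levels are given there with no p-value. Cox6a2, Cox7b2, Cox8b and Cox8c, the muscle and testis forms of complex IV subunits, never exceeded 4, 9, 1 and 3 counts in a library and were not tested. The labelled cell types were checked with marker genes. The summed level of 8 fibroblast markers was 26739 to 28245 CPM (count divided by the library size after TMM scaling for composition) in MEF, 2076 to 4830 on day 3 and 1775 to 5535 on day 8. In ESC it was 8481 in library 0822 but 70.8 in library 0819, and each of the 8 markers was higher in 0822. The 7 pluripotency markers summed to 2365 to 3429 CPM in ESC, 0.215 to 1.42 in MEF, 2.04 to 16.3 on day 3 and 14.7 to 255 on day 8. The part of fibroblast transcripts in the ESC results was not tested, and beside ESC results that 1 library moved by more than 1.5 times or whose call it ended, the value without that library is given.

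Many members have near copies or neighbours that could take some of their reads. Counts were whole in all 31 libraries for 57 members (tolerance 0.005) and were divided with other genes in at least 1 library for 26, and in all 31 for Atp5b, Atp5f1, Atp5g1, Atp5g2, Atp5l and Cox5a. The exons of 24 members overlap another gene, among them Ndufs6 (Mrpl36), Uqcrb (Gm10767), Cox5a (Gm26631), Atp5d (Cbarp), Atp5a1 (Haus1), Uqcrc2 (Pdzd9), Ndufa2 (Tmco6) and Ndufs1 (Eef1b2). The strand setting of the counting is not given in the sources used here, so values of these genes are uncertain to the extent that reads of the neighbour were counted with them.

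The members together took a larger share of the counts in ESC and reprogramming cells than in MEF. The share was 0.697% and 0.708% in the 2 MEF libraries, 0.679% to 0.746% in the 3 MEF libraries in a medium, 0.879% to 1.09% on day 3 (median 0.965%), 0.784% to 0.977% on day 8 (median 0.877%) and 1.01% and 1.09% in ESC. No library of reprogramming cells was as low as a MEF library, while the day 3 and day 8 ranges overlapped. In every one of the 12 groups of reprogramming cells the library numbered 0824 had the higher share (6 of 6 groups on each day). The composition scaling changed MEF values most, and the tested differences are relative to it: with library totals alone the median of all genes was 0.20 between ESC and MEF and 0.34 between day 3 and MEF on the log2 scale. In bulk RNA, fewer cells of a type and less RNA per cell cannot be told apart.

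**Figure D1:**
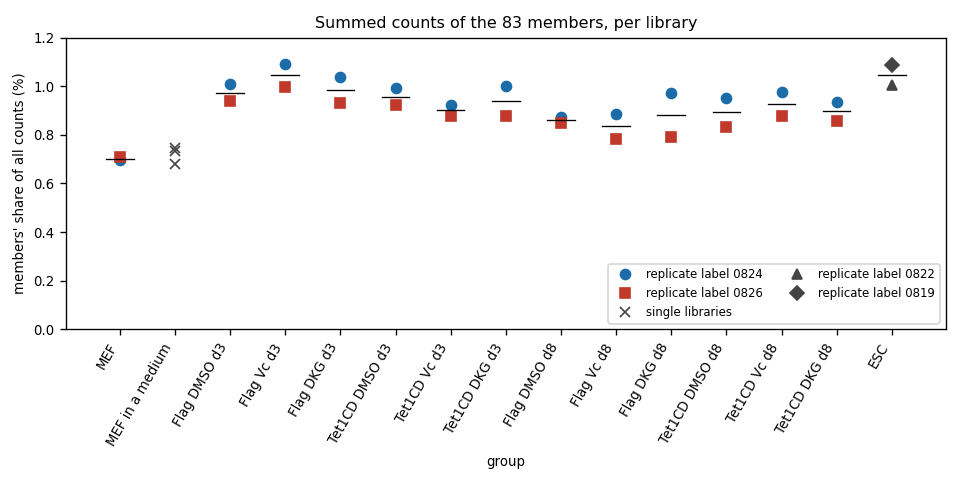
Share of all counts (in percent) taken by the 83 members, for each library, by group; each point is 1 library and its marker gives the replicate label. Both MEF libraries lie at about 0.70%, and the reprogramming libraries between 0.784% and 1.09%.

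The complexes differed in level. By the deposited TPM, a relative transcript abundance which takes account of transcript length, the median member of complex I had a mean over 31 libraries of 144, of complex II 178, of complex III 306, of complex IV 397 and of complex V 366. The most abundant member was Atp5b (1618), the catalytic beta subunit of ATP synthase, and the next highest of the other complexes were Cox4i1 (829), the widely expressed form of subunit 4 of cytochrome c oxidase, and Uqcrh (535), the hinge protein of complex III. The least abundant members were Uqcrfs1 (148) in complex III, Cox8b (0.0403) in complex IV and Atp5s (6.98), a coupling factor, in complex V. In complex I the range ran from Ndufa11 (37.3) to Ndufa12 (353), and in complex II from Sdhb (177), the iron-sulphur subunit, to Sdhc (221), a membrane anchor. Sums over a complex were highest for complex V: 6280 to 6475 TPM in MEF, 7313 to 8811 on day 3, 6655 to 7987 on day 8 and 8606 to 8696 in ESC. Complex IV summed to 5266 to 5672 TPM in MEF and 6853 to 7661 in ESC, and complex I to 4822 to 4899 and 5364 to 5592. Both ESC libraries were above both MEF libraries in each of these 3 sums.

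Within reprogramming the members varied little. The ratio of the highest to the lowest CPM over the 24 libraries had a median of 1.57 among the 79 tested members, was under 2 for 70 of them and was lowest for Atp5g3 (1.29), one of the genes for the c subunit that forms the rotor ring of ATP synthase. The same ratio had a median of 2.37 over all genes tested and of 1.67 over 951 genes with a mean TPM between the members' quartiles. The 9 members not under 2 were Atp5g2, Atp5l, Atp5s, Cox4i2, Cox6b2, Cox7a1, Ndufa1, Ndufa4 and Uqcr11.

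**Figure D2:**
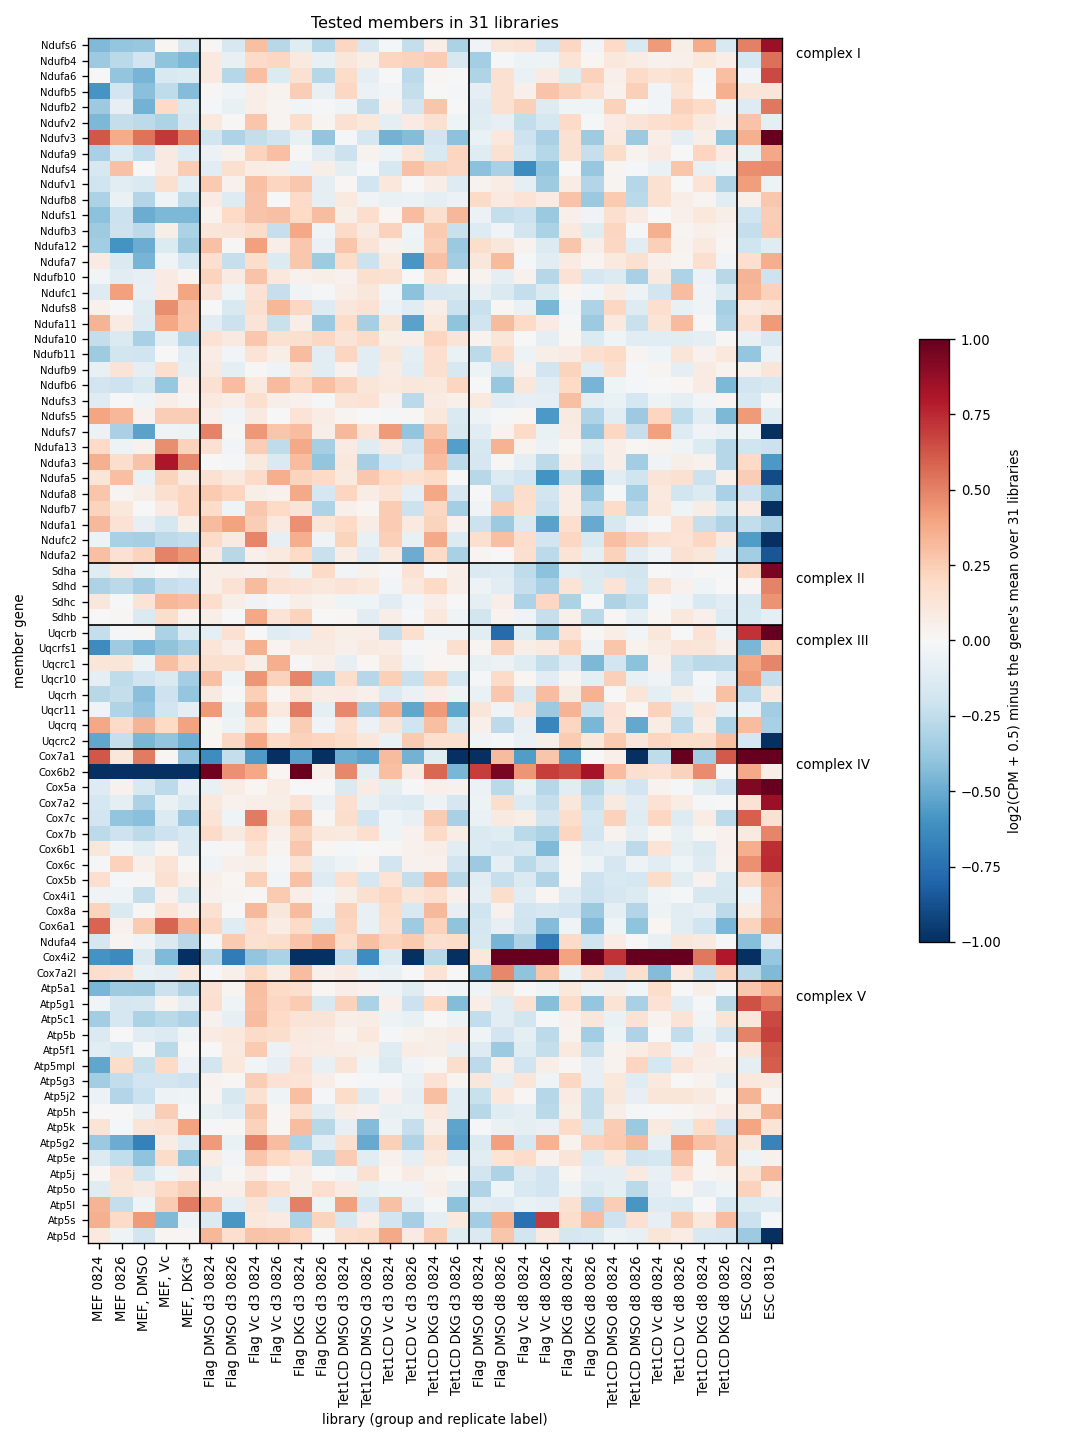
Level of the tested members, all but 1 of the 79, in each of the 31 libraries, as log2(CPM + 0.5) minus the gene's mean; colours stop at -1 and 1, rows are ordered by complex, and the asterisk marks the library with conflicting labels for its medium. Cox6b2 is lowest in the 5 MEF columns and Cox4i2 highest in day 8 columns, ESC library 0819 has strong colours in both directions, and most of the 24 reprogramming columns are pale.

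Between ESC and MEF, the end and the start of the route, 21 of the 79 members rose and 4 fell by edgeR's quasi-likelihood test (adjusted p under 0.05). Cox7a1, which the filter admitted through ESC, is 1 of the rises, and without it and Cox4i2 the counts are 20 and 4 of 77. Among all genes 26.8% were higher and 25.7% lower, so the members' share of rises (26.6%) was near the background and their share of falls (5.06%) was below it. The median log2 fold change of the members was 0.21, and 57 of 79 were above 0, against a median of 0.00 for all genes. Large changes were few: 5 of 79 members, Cox7a1 included, moved more than 1 on the log2 scale, against 7561 of 14914 genes. The 14914 genes were not matched to the members in level, so this difference is not read as particular to the members. Scaled by library totals alone, 38 members were higher and 1 lower (31.6% and 20.8% of all genes). The rises were 8 in complex IV, 6 in V, 4 in I, 2 in II and 1 in III, and the falls were 3 in I and 1 in V.

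In complex I, Ndufs6, a zinc-binding accessory subunit, had 26.2 and 27.2 CPM in MEF and 50.9 and 65.3 CPM in ESC. It rose by 1.12 ± 0.25 on the log2 scale (SE, adjusted p = 0.00134, edgeR), with no overlap. Ndufb4, an accessory subunit of the membrane arm, was at 44.5 and 47.3 CPM in MEF and at 50.7 and 84.0 CPM in ESC, and rose by 0.55 ± 0.19 (adjusted p = 0.0240). Its rise came mostly from ESC library 0819, without which it was 0.14 (adjusted p = 0.550), and its adjusted p was 0.130 and 0.0728 without MEF library 0824 and 0826. Ndufb5 (0.50) and Ndufv2 (0.45), which carries an iron-sulphur cluster, also rose. They were 0.30 (adjusted p = 0.274) and 0.33 (adjusted p = 0.171) without MEF library 0824, and Ndufv2 was 0.23 (adjusted p = 0.221) without ESC library 0822. Ndufb5 also lost its call without either ESC library (0.50 without 0819, 0.49 without 0822) and kept it in 1 of the 4 fits without 1 library. The 3 that fell were Ndufa2 (-0.82 ± 0.25, adjusted p = 0.0116), Ndufc2 (-0.76 ± 0.28, adjusted p = 0.0275) and Ndufa1 (-0.54 ± 0.22, adjusted p = 0.0467). Ndufa2 had 51.8 and 46.5 CPM in MEF and 32.8 and 22.9 in ESC, and Ndufc2 40.4 and 33.3 against 28.2 and 15.2, so that each ESC library was below each MEF library. The edgeR calls of Ndufa2 and Ndufc2 were lost without ESC library 0819 (-0.58 and -0.38, adjusted p = 0.127 and 0.305) and without MEF library 0824 (adjusted p = 0.0664 and 0.149), and that of Ndufa1 was lost without any 1 of the 4 libraries (adjusted p 0.0645 to 0.189). Without ESC library 0822 Ndufc2 was at -1.29 and Ndufb4 at 0.86.

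In complex II, Sdha, the flavoprotein that oxidizes succinate, was at 208 and 239 CPM in MEF and at 260.3 (0822) and 437 CPM (0819) in ESC. Sdhd, a membrane anchor, was at 88.3 and 90.4 CPM in MEF and at 111 and 155 in ESC. Both ESC libraries were higher for each gene, and 0819 was the higher of the pair. Sdha rose by 0.64 ± 0.17 (adjusted p = 0.00501, edgeR) and Sdhd by 0.57 ± 0.16 (adjusted p = 0.00544). Without ESC library 0819 they were 0.22 (adjusted p = 0.209) and 0.31 (adjusted p = 0.123), and Sdha also lost its call without MEF library 0824 (adjusted p = 0.0649). Sdhb, at 96.2 and 97.5 CPM in MEF and 86.8 and 90.4 in ESC (-0.13 ± 0.15, adjusted p = 0.480), and Sdhc, at 93.0 and 85.9 CPM in MEF and 76.7 and 117 in ESC (0.12 ± 0.18, adjusted p = 0.605), did not pass the test. In complex III only Uqcrb, which lies near the quinone-binding site, changed: 70.9 and 82.7 CPM in MEF against 138 and 170.0 in ESC, a rise of 1.01 ± 0.20 (adjusted p = 0.000459).

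Complex IV had the most rises. Cox5a, a nuclear subunit on the matrix side, was at 112 and 126 CPM in MEF and at 232 and 306 CPM in ESC, with no overlap (log2 fold change 1.18 ± 0.15, adjusted p = 7.32e-06, edgeR). Cox7a2 (0.69), Cox7c (0.69), Cox7b (0.54), Cox6b1 (0.52) and Cox6c (0.50), all widely expressed small subunits, rose as well. None of these 5 kept its call in every fit without 1 library: without ESC library 0819 Cox7a2 was 0.29, Cox7b 0.33, Cox6b1 0.32 and Cox6c 0.35 (adjusted p = 0.196, 0.0991, 0.132 and 0.110), and without ESC library 0822 Cox7c was 0.43 (adjusted p = 0.181). MEF libraries mattered too, since without 0824 Cox7a2, Cox7b, Cox6c and Cox7c, and without 0826 Cox6b1 and Cox7c, had adjusted p-values of 0.0510 to 0.135. The other 2 rises were the isoform genes Cox6b2 and Cox7a1, which are described with the isoforms. In complex V, Atp5a1, the alpha subunit of the catalytic head, was at 655 and 705 CPM in MEF and at 1086 and 1155 CPM in ESC, and rose by 0.72 ± 0.12 (adjusted p = 0.000118, edgeR). Atp5c1, the central-stalk gamma subunit, rose by 0.67, Atp5b by 0.66, Atp5f1 by 0.53 and Atp5g3 by 0.40. Without ESC library 0819 Atp5c1 was 0.38 (adjusted p = 0.0434) and Atp5f1 0.26 (adjusted p = 0.231), Atp5f1 also lost its call without MEF library 0824 or 0826 (adjusted p = 0.0578 and 0.0718), and Atp5g3 was 0.33 (adjusted p = 0.130) without MEF library 0824. Atp5g1, another gene for the c subunit, was at 106 and 96.3 CPM in MEF and at 169 and 157 CPM in ESC (0.69 ± 0.26, adjusted p = 0.0346), and its edgeR adjusted p was between 0.0713 and 0.157 when any 1 of the 4 libraries was left out. Atp5d, the delta subunit of the central stalk, fell: 209 and 189.7 CPM in MEF, 152 (0822) and 82.2 (0819) in ESC, -0.77 ± 0.22 (adjusted p = 0.00747), -0.39 (adjusted p = 0.129) without ESC library 0819 and -1.29 without 0822. Of the 25 calls, 7 were kept whichever of the 4 libraries was left out: Ndufs6, Uqcrb, Cox5a, Cox6b2, Atp5a1, Atp5b and Atp5c1. The count of calls in all was 11 (10 higher) without MEF library 0824, 12 (12 higher) without ESC library 0819 and 33 (25 higher) without ESC library 0822, the one with the higher fibroblast markers, while 36.1%, 37.7% and 56.1% of all genes were called.

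**Figure D3:**
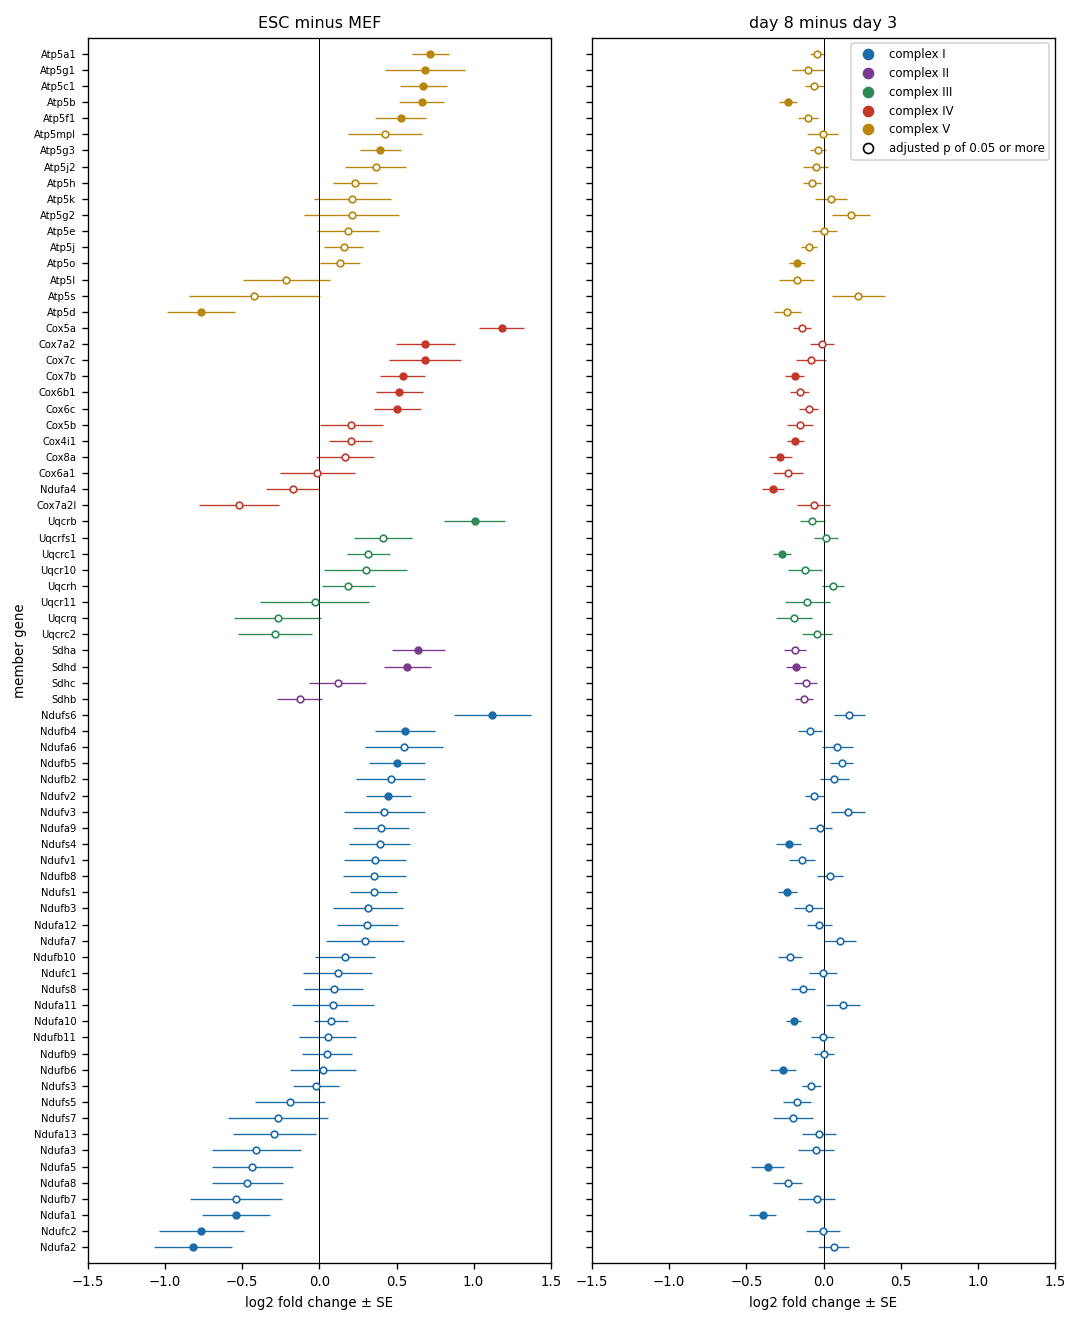
Log2 fold change ± SE (horizontal axis) of the members, in the ESC to MEF and the day 8 to day 3 comparisons, coloured by complex, with open points where the edgeR adjusted p was 0.05 or more; Cox7a1, Cox4i2 and Cox6b2 are left out because they lie outside or stretch the scale, and 1 further member is not drawn. Rises prevail in ESC and small falls on day 8.

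Between day 3 Flag cells in DMSO and MEF, 7 of the 79 members rose and 1 fell (edgeR), against 14.8% of all genes higher and 13.9% lower. The median of the members was 0.14, against 0.04 for all genes. The share of members that moved was below the background in each direction. The split depended on the scaling, with 25 higher and 0 lower by library totals alone (24.5% and 9.69% of all genes), 3 and 1 with RLE factors (13.5% and 15.2%), and 17 and 1 by limma on log2(TPM + 1) (17.6% and 10.7%). The fit assumes that the reprogramming cells started from MEF like those measured. In complex I, Ndufa12, an accessory subunit, was at 69.4 and 58.3 CPM in MEF and at 108 and 89.0 CPM in the day 3 libraries (0.63 ± 0.20, adjusted p = 0.0240). Ndufs1, the largest iron-sulphur subunit, was at 111 and 128 CPM in MEF and at 152 and 170.5 CPM on day 3 (0.43 ± 0.15, adjusted p = 0.0401). Ndufv2 and Ndufa10 rose too, by 0.40 and 0.31. Ndufv3, an accessory subunit of the NADH-oxidizing module, was the single fall, from 60.8 and 50.8 CPM to 34.5 and 31.5 CPM (-0.76 ± 0.27, adjusted p = 0.0410), and none of the 12 day 3 libraries reached the lower MEF value (28.2 to 38.8 CPM).

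Uqcrfs1, the Rieske iron-sulphur protein of complex III, was at 62.1 and 75.4 CPM in MEF and at 105 and 101 CPM on day 3 (0.58 ± 0.19, adjusted p = 0.0274, edgeR). Atp5a1 was at 655 and 705 CPM in MEF and at 1000.0 and 918 CPM on day 3 (0.50 ± 0.12, adjusted p = 0.00510). Cox6b2 rose most, from 7.73 and 5.49 CPM to 36.2 and 25.1 CPM (2.21 ± 0.37, adjusted p = 0.000413). No member of complex II passed the test, Sdhd being nearest (0.40 ± 0.16, adjusted p = 0.0634). These calls were fragile: Cox6b2 alone kept its call in each of the 4 fits that left out 1 library. The counts were 1 without MEF library 0824, 1 without day 3 library 0824, 3 without MEF library 0826 and 3 without day 3 library 0826 (12.9%, 11.2%, 18.0% and 18.4% of all genes), and 1 of the 8 calls was kept in every fit without 1 library. With a block for the replicate number within each day, which did not cover MEF, 14 rose and 1 fell (22.7% and 22.1% of all genes). Between MEF and day 3 libraries of the same number, the deviations from the group means were only weakly correlated (0.062 to 0.159).

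Between day 8 and day 3, over both vectors and the 3 media, 15 of the 79 members fell and 1 rose (edgeR), against 10.7% of all genes lower and 14.4% higher. The rise was Cox4i2, which the filter admitted through day 8 groups, so that 15 fell and 0 rose among the 77 members past the filter in every group. The falls were small, at most 0.40 on the log2 scale. The median of the members was -0.08 with 60 of 79 below 0, against a median of 0.01 for all genes. By complex, 7 of 35 fell in I, 1 of 4 in II, 1 of 8 in III, 4 of 15 tested in IV and 2 of 17 in V. With the block for replicate number within each day, used because same-numbered libraries of a day deviated together, 26 fell and 1 rose (19.1% and 20.9% of all genes). The count was 10 (9 lower, with 19.0% of all genes called) when day 8 library 0826 of Flag cells in DKG was left out. Of the 16 calls, 10 were kept in every fit without 1 library. Cox4i2, whose call follows from the filter, is included in both counts.

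Ndufa1, a small subunit of the membrane arm that is needed for assembly of complex I, had 22.7, 25.5 and 30.4 CPM as lowest, median and highest of the 12 day 3 libraries and 15.0, 19.2 and 24.7 on day 8. Ndufa5, an accessory subunit, had 30.4, 34.8 and 39.2 CPM on day 3 and 19.9, 26.5 and 33.9 on day 8. The ranges overlapped for both genes, and both fell, by 0.40 ± 0.09 (adjusted p = 0.00370, edgeR) and by 0.36 ± 0.11 (adjusted p = 0.0186). Falls in complex I also included Ndufs1, a core electron-transfer subunit (-0.23), and the accessory subunits Ndufb6 (-0.26), Ndufs4 (-0.23) and Ndufa10 (-0.19). Ndufs1 and Ndufa10 kept their call in all 24 fits without 1 library, Ndufb6 in 13 and Ndufs4 in 5. Uqcrc1, a core protein of complex III, was at 174 to 237 CPM on day 3 (median 188) and at 135 to 189 on day 8 (median 159), and it fell by 0.27 ± 0.06 (adjusted p = 0.00240). Sdhd fell by 0.18 ± 0.06 (adjusted p = 0.0479), from a median of 119 to 106 CPM, and its adjusted p was 0.05 or more in 21 of the 24 fits without 1 library, the first of them without day 3 library 0824 of Flag cells in DMSO (-0.20, adjusted p = 0.0514).

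In complex IV, Ndufa4, a subunit first assigned to complex I, had a lowest, median and highest level of 121, 140.0 and 156 CPM on day 3 and of 75.2, 118 and 139 on day 8. Cox8a, a small structural subunit, had 135, 164 and 188 CPM on day 3 and 116, 133 and 154 on day 8. The day 8 medians were lower and the ranges overlapped. The log2 fold changes were -0.33 ± 0.07 (adjusted p = 0.00238, edgeR) and -0.28 ± 0.08 (adjusted p = 0.0138), and Cox7b (-0.19) and Cox4i1 (-0.18) also fell, with their call kept in 18 and 22 of the 24 fits without 1 library. In complex V, Atp5b went from 1265, 1350.0 and 1458 CPM to 1006, 1158 and 1306 CPM (-0.23 ± 0.06, adjusted p = 0.00885), and Atp5o, a subunit of the stator stalk, from a median of 178 to 162 CPM (-0.17 ± 0.05, adjusted p = 0.0249). The call of Atp5o was lost (adjusted p 0.0518 to 0.0583, edgeR) in 5 of the 24 fits without 1 library: day 3 library 0824 of Flag in Vc, and day 8 libraries 0824 of Flag in DMSO and 0826 of Flag in Vc, Flag in DKG and Tet1CD in DMSO.

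Within single conditions the day 8 to day 3 difference called no member in edgeR. All genes called were 1.09% for Flag in DMSO, 1.26% for Flag in Vc, 0.168% for Flag in DKG, 0.0536% for Tet1CD in DMSO, 0.161% for Tet1CD in Vc and 0.0738% for Tet1CD in DKG. The lowest adjusted p of a member was 0.0678, for Ndufs1 in Flag cells in Vc, where 23 members had an unadjusted p under 0.05. DESeq2 and limma were not run on these contrasts. With the block within days, 12 members fell and 1 rose in Flag cells in Vc (4.61% and 7.11% of all genes), among them Ndufs1 (-0.59 ± 0.13, adjusted p = 0.00613) and Ndufa4 (-0.66 ± 0.14, adjusted p = 0.00681). The same edgeR fit called Ndufa1 lower in Flag cells in DMSO (-0.66 ± 0.18, adjusted p = 0.0324), with 3.37% of all genes lower and 5.24% higher. It also called Cox4i2 higher in Flag cells in DKG (4.06% of all genes higher, 2.43% lower). Cox4i2 had 1 and 0 counts there on day 3 and 7 and 12 on day 8. The filter admitted Cox4i2 only through day 8 libraries, so its call is given as a description.

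Between ESC and day 8, the distance left at the end of the time course, 25 of 79 members were higher in ESC and 5 lower (edgeR), against 27.6% and 24.3% of all genes, and 24 and 4 of 77 without Cox7a1 and Cox4i2. By limma on log2(TPM + 1) the split was 16 and 7 (22.5% and 28.3% of all genes). The median was 0.20 for the members and -0.01 for all genes. Rises were 9 in complex IV, 8 in V, 4 in I, 2 in II and 2 in III. Day 8 and MEF were compared with the same ESC libraries, so the 2 comparisons are not independent. Cox5a had the lowest adjusted p, with 99.7 to 125 CPM on day 8 and 232 and 306 in ESC (1.28 ± 0.10, adjusted p = 1.41e-08). Uqcrb was at 48.9 to 92.3 CPM on day 8 (median 82.8) and at 138 and 170.0 in ESC (0.96 ± 0.14, adjusted p = 1.69e-05), and Atp5b at 1006 to 1306 against 1803 and 2054 (0.74 ± 0.10, adjusted p = 1.38e-05). For these 3 genes every ESC library was above every day 8 library.

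Others moved in step with 1 ESC library. Ndufv3 was at 29.7 to 43.6 CPM on day 8 and at 50.3 (0822) and 99.2 (0819) in ESC, a rise of 1.03 ± 0.19 (adjusted p = 0.000171, edgeR) that was 0.45 (adjusted p = 0.0966) without 0819. Uqcrc2, the other core protein of complex III, was at 174 to 225 CPM on day 8 and at 162 (0822) and 70.0 (0819) in ESC, a fall of 0.79 ± 0.20 (adjusted p = 0.00271), -0.31 (adjusted p = 0.102) without 0819 and -1.53 without 0822. Atp5d fell by 0.70 ± 0.18 (adjusted p = 0.00296) and Ndufa2 by 0.61 ± 0.20 (adjusted p = 0.0164), and without 0819 they were at -0.32 (adjusted p = 0.151) and -0.38 (adjusted p = 0.262), while Atp5d was at -1.23 without 0822. Without 0819, the ESC library with few fibroblast transcripts, the count of calls was 18 (15 higher), and without 0822 it was 36 (28 higher), with 35.1% and 55.5% of all genes called. Of the 30 calls, 10 were kept in every fit without 1 library, Cox7a1 included.

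The next 4 members kept their call in every fit that left out 1 library. Ndufs4, an accessory subunit needed for stable complex I, was at 23.1 to 43.7 CPM on day 8 and at 49.9 and 50.2 in ESC (0.64 ± 0.14, adjusted p = 0.00112, edgeR). Ndufc2 was at 36.6 to 51.8 against 28.2 and 15.2 CPM (-1.09 ± 0.23, adjusted p = 0.000627; -0.71 without 0819, adjusted p = 0.0373). Sdha was at 169.7 to 227 against 260.3 and 437 CPM (0.76 ± 0.12, adjusted p = 5.89e-05; 0.34 without 0819, adjusted p = 0.0273). Uqcrc1 was at 135 to 189 against 240.2 and 258 CPM (0.63 ± 0.10, adjusted p = 5.13e-05). In all 4 genes the ESC libraries lay outside the day 8 range. Atp5g1 (0.65 ± 0.19, adjusted p = 0.00723) lost its call without 0822 (adjusted p = 0.0596), and Sdhd (0.33 ± 0.12, adjusted p = 0.0224) lost it without 0819 (0.07, adjusted p = 0.738; 0.54 without 0822) and without day 8 library 0826 of Tet1CD cells in DMSO (adjusted p = 0.0503).

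The isoform genes of complex IV gave the widest differences. Cox6b2, known as the testis form of subunit 6b, was at 7.73 and 5.49 CPM in MEF, at 1.94 to 6.48 in MEF in a medium, at 13.1, 23.2 and 37.3 (lowest, median, highest) on day 3, at 18.1, 25.1 and 35.5 on day 8 and at 23.8 and 19.1 in ESC. All 24 reprogramming libraries and both ESC libraries were above all 5 MEF libraries. Its log2 fold change between ESC and MEF was 1.70 ± 0.37 (adjusted p = 0.00123, edgeR). Its widely expressed partner Cox6b1 was at 138 to 152 CPM in MEF, 130.0 to 169 on day 3, 103 to 154 on day 8 and 181 and 235 in ESC. Germ-cell markers, 6 genes, summed to 0.215 to 0.609 CPM in MEF, 0 to 9.72 on day 3, 0 to 10.7 on day 8 and 33.6 to 50.3 in ESC, and their part in the Cox6b2 level was not tested.

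Cox7a1, the heart and skeletal muscle form of subunit 7a, had 5 and 3 counts in the MEF libraries, 0 to 4 on day 3, 0 to 9 on day 8 and 36 (0822) and 82 (0819) in ESC, that is 7.15 and 15.9 CPM. Both ESC libraries stood above all others. The fitted log2 difference was 3.75 ± 1.06 between ESC and MEF and 4.54 ± 0.61 between ESC and day 8, given as a description because ESC alone brought the gene past the filter. The 10 muscle markers summed to 145 to 204 CPM in MEF and to 15.2 to 28.6 in ESC. Acta1 made up most of the MEF sum, and the other 9 summed to 2.58 and 2.84 CPM in MEF and to 4.77 (0822) and 13.0 (0819) in ESC. None of these 9 exceeded 3.5 CPM in an ESC or MEF library, and they did not all go the same way. Tnni2 was lower in ESC (0.397 and 0 CPM) than in MEF (0.859 and 0.406), and Tnnt2 overlapped (1.39 and 0.778 against 1.29 and 2.235). The 4 brown fat markers summed to 0.397 (0822) and 21.8 CPM (0819) in ESC and to 1.02 to 1.07 in MEF. The sum in 0819 was Cidea alone (21.8 CPM). Ucp1 and Elovl3 were at 0 in every ESC and MEF library, and Ppargc1a was lower in ESC (0.199 and 0 CPM) than in MEF (1.07 and 1.02). The part of muscle and brown fat transcripts in the Cox7a1 level was not tested.

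Cox4i2, the lung and low-oxygen form of subunit 4, had 2 counts in each MEF library, 0 to 4 counts in the day 3 libraries (0 in 3 of 12), 7 to 37 on day 8 and 0 and 3 in ESC. A count of 0 allows up to 3 counts, counting error alone. On the CPM scale day 3 ran from 0 to 0.777 and day 8 from 1.01 to 9.09 with a median of 2.54. Every day 8 library was above every day 3 library, in a gene that the filter admitted only through its day 8 levels. The fitted log2 difference between day 8 and day 3 was 2.79 ± 0.45 and that between ESC and day 8 was -3.09 ± 0.99 (-2.17 without ESC library 0822, and with 0822 alone, which is at 0, no fold is given), as a description because day 8 groups alone brought the gene past the filter. Cox4i1, its partner, was at 273, 291 and 333 CPM on day 3 and 240.0, 256 and 315 on day 8, and Cox4i2 stayed far below it. Among 6 genes listed as induced by low oxygen, 2 rose and 1 fell from day 3 to day 8, against 14.4% and 10.7% of all genes. Cox4i2 was itself 1 of the 2 rises, so this count is not independent of it. Ndufa4l2, a paralogue of Ndufa4 that is induced by low oxygen and is outside the naming rule, was at 0.476 to 16.6 CPM on day 3 and 14.7 to 50.9 on day 8. Keratinocyte markers, 6 genes, summed to 15.7 to 64.7 CPM on day 3 and 62.4 to 326 on day 8, and their part in the Cox4i2 level was not tested.

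The other isoform families kept closer levels. Cox6a1, the widely expressed form of subunit 6a, was at 144 and 210 CPM in MEF, 106 to 164 on day 3, 102 to 142 on day 8 and 164 and 187 in ESC, and was higher in ESC than on day 8 (0.53 ± 0.18, adjusted p = 0.0184, edgeR; 0.43, adjusted p = 0.182, without ESC library 0819). Cox7a2 was at 58.8 and 62.2 CPM in MEF, 59.3 to 75.1 on day 3, 56.8 to 75.2 on day 8 and 73.7 and 121 in ESC. Cox7a2l, a related protein that takes part in supercomplexes, was at 162 and 165 CPM in MEF and at 107 and 121 in ESC, both lower, but did not pass the test (-0.52 ± 0.26, adjusted p = 0.100). The 3 genes of the c subunit encode the same mature protein. Atp5g3 had the highest TPM median on day 3 (556) and day 8 (534), above Atp5g1 (397 and 358) and Atp5g2 (267 and 307). Of the 3, Atp5g2 alone did not pass the test between ESC and MEF (0.21 ± 0.31, adjusted p = 0.587), with 59.5 and 65.1 CPM in MEF and 52.9 and 91.2 in ESC, and their counts were divided with other genes in every library for Atp5g1 and Atp5g2.

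**Figure D4:**
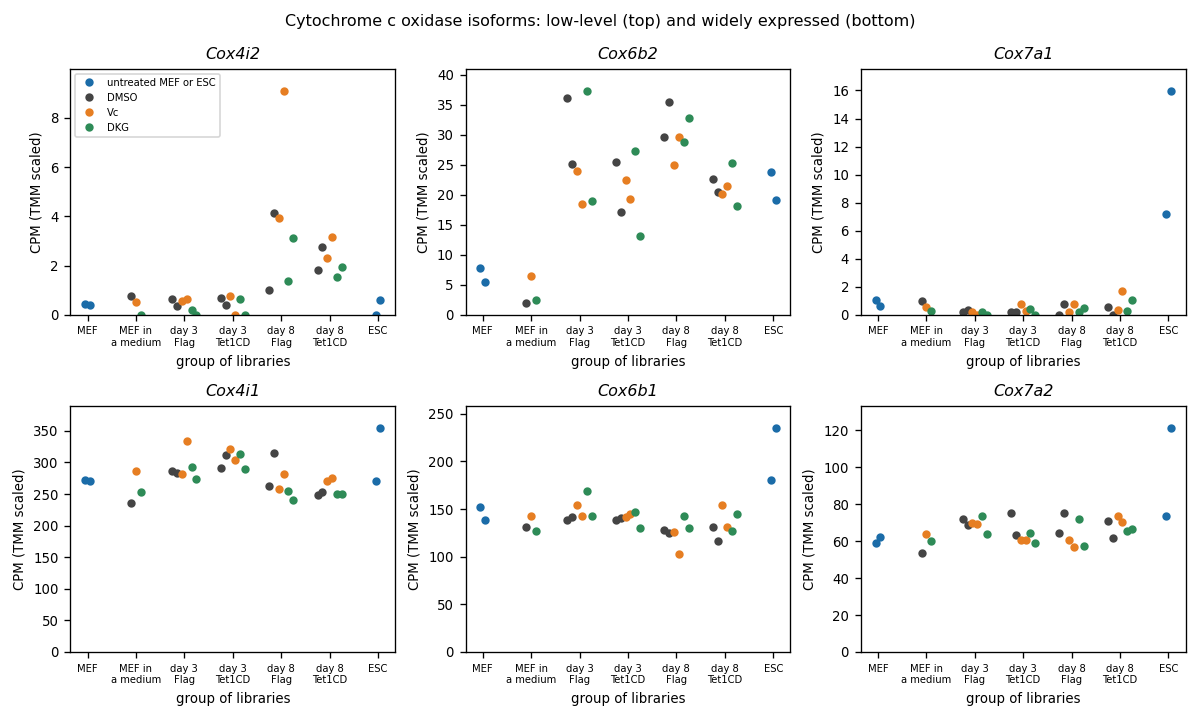
CPM in each library for complex IV isoform genes, low-level forms above and widely expressed forms below, by group of libraries and coloured by medium. Cox4i2 is high on day 8 (1.01 to 9.09 CPM), Cox7a1 in ESC (7.15 and 15.9), and Cox6b2 in all but MEF.

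No member passed the test for Vc, DKG or Tet1CD, except Cox6b2 for Tet1CD when replicate numbers were blocked within days. Vc against DMSO, over both vectors and both days, called 0 of 79 members in edgeR (0.590% of all genes), with 0 at an unadjusted p under 0.05 and 0 in DESeq2 and in limma. DKG against DMSO called 0 (0% of all genes), with 0 at an unadjusted p under 0.05 and 0 in both other tools. Leaving out the low-count genes Cox4i2 and Cox7a1, the log2 fold changes of the other 77 ran from -0.22 to 0.12 for Vc (median SE 0.10) and from -0.15 to 0.23 for DKG (median SE 0.10). The members with the lowest p of each complex for Vc were Ndufb4 (0.10), Sdhb (0.09), Uqcrc1 (0.06), Cox6b2 (-0.22) and Atp5o (0.06), none of which passed the test. For DKG they were Ndufs1 (0.09), Sdha (0.05), Uqcrb (0.10), Cox4i2 (-0.85) and Atp5d (-0.15), with the same outcome. The 8 libraries of each medium, which span both vectors and both days, overlapped for all 83 members. The share of all genes that overlap is not given here and few genes were called, so the overlap is not read as particular to the members. A p that misses the threshold does not show that the media act alike.

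Single conditions also gave no call in edgeR. For Vc against DMSO all genes called were 0% in Flag cells on day 3, 0% in Flag cells on day 8, 0.261% in Tet1CD cells on day 3 and 0.174% in Tet1CD cells on day 8. For DKG against DMSO it was 0% in each of the 4. The difference of the Vc effect between Tet1CD and Flag called no member (0.148% of all genes), nor did that between day 8 and day 3 (0%).

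Tet1CD against Flag, over the 3 media and both days, called 0 of 79 members in edgeR (2.10% of all genes), with 3 at an unadjusted p under 0.05 and 0 in DESeq2 and limma. The log2 fold changes of the 77 ran from -0.42 to 0.21 with a median SE of 0.08. Cox6b2 was at 18.5, 29.2 and 37.3 CPM (lowest, median, highest) in the 12 Flag libraries and at 13.1, 20.9 and 27.3 in the 12 Tet1CD libraries, which overlapped (-0.42 ± 0.14, adjusted p = 0.179, edgeR). With the block for replicate number within each day, in which same-numbered libraries of a day deviated together, Cox6b2 passed the test (-0.42 ± 0.09, adjusted p = 0.00895), 1 of 79 members lower against 3.49% of all genes lower and 5.20% higher. With 1 block per number across both days its adjusted p was 0.0612. Ndufs4 was at 23.1 to 40.2 CPM in Flag and 32.1 to 44.2 in Tet1CD (0.21 ± 0.08, adjusted p = 0.254), and the lowest-p members of the other complexes were Sdhc (-0.08), Uqcrc1 (-0.09) and Atp5j (0.10).

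In single conditions Tet1CD against Flag called no member in edgeR. All genes called were 0.00671% in DMSO on day 3, 0.0469% in DMSO on day 8, 0.483% in Vc on day 3, 0.235% in Vc on day 8, 0.00671% in DKG on day 3 and 0.0335% in DKG on day 8. In Vc the members leaned one way on each day: 68 of 79 were below 0 on day 3 (median -0.17, all genes 0.00) and 67 of 79 above 0 on day 8 (median 0.14, all genes -0.01). In DMSO the medians were 0.00 and 0.01. The members' share of counts in Flag cells in Vc was 1.09% and 0.997% on day 3 and 0.886% and 0.784% on day 8, against 0.925% and 0.879%, then 0.977% and 0.879%, in Tet1CD cells in Vc. Members are read in the same libraries, so their signs are not independent of each other. A day 8 library of Tet1CD cells in Vc had marker genes of macrophages and blood at a summed 796 CPM (day 8 median 9.74). The part of such transcripts in these values was not tested. The difference of the Tet1CD effect between the days, over the 3 media, called no member (0.295% of all genes), with 1 at an unadjusted p under 0.05, although 69 of 79 estimates were above 0 (median 0.11, all genes -0.03).

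**Figure D5:**
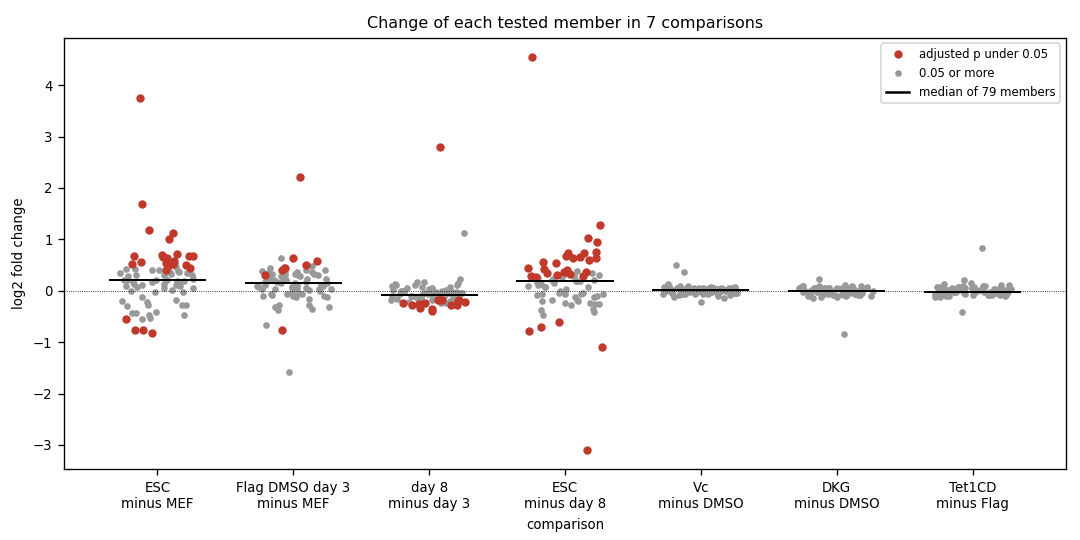
Log2 fold change (vertical axis) of each tested member in the 7 comparisons named on the horizontal axis; each point is 1 member, red where the edgeR adjusted p was under 0.05, and the line is the median of the 79. The comparisons of Vc, DKG and Tet1CD have no red point, and without Cox4i2 and Cox7a1 their points lie between -0.42 and 0.23. Cox4i2 is at -0.85 for DKG and Cox7a1 at 0.83 for Tet1CD.

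Other genes of mitochondrial energy metabolism were described from fixed lists in the same fit. Their counts are to be read against the shares of all genes called higher and lower, which were 26.8% and 25.7% between ESC and MEF, 14.8% and 13.9% between day 3 and MEF, 14.4% and 10.7% between day 8 and day 3, and 27.6% and 24.3% between ESC and day 8. Of 49 assembly factors, which build the complexes without staying in them, 10 were higher and 9 lower in ESC than in MEF (median -0.10), 7 rose and 0 fell between MEF and day 3 Flag cells in DMSO (0.24), 0 rose and 4 fell from day 3 to day 8 (-0.15), and 9 were higher and 10 lower in ESC than on day 8 (-0.12). Of 77 mitochondrial ribosomal proteins, which translate the mitochondrially encoded subunits, the counts were 24 and 6 (0.26), 16 and 1 (0.40), 0 and 10 (-0.14) and 18 and 15 (-0.03) in the same order. In ESC against MEF the largest changes of these 2 lists were Ndufaf6 (1.90 ± 0.32, adjusted p = 0.000119, edgeR), Sco2 (-1.45 ± 0.38, adjusted p = 0.00437), which inserts copper into complex IV, Mrps5 (1.61) and Mrps6 (-1.22). The rises of the assembly factors were 20.4% between ESC and MEF and 14.3% between day 3 and MEF, at or below the background, and those of the ribosomal proteins were 31.2% and 20.8%. The 17 genes of the tricarboxylic acid cycle gave 4 and 2 (0.23), 5 and 0 (0.25), 0 and 5 (-0.14) and 3 and 3 (0.07). From day 3 to day 8 the share that fell was 8.16% of the assembly factors, 13.0% of the ribosomal proteins and 29.4% of the cycle genes, against 10.7% of all genes, so the first 2 were below or near the background.

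The 19 regulators of mitochondrial biogenesis gave 8 and 3 (0.64), 4 and 0 (0.43), 4 and 4 (-0.05) and 3 and 4 (-0.05). Esrrb, a nuclear receptor that is also a pluripotency marker, was among them, at 0 and 0.406 CPM in MEF and 436 and 645 CPM in ESC. Of 15 genes of glycolysis and lactate, 6 were higher and 0 lower in ESC than in MEF, 1 and 0 moved between MEF and day 3, 0 and 2 from day 3 to day 8, and 6 and 1 between day 8 and ESC. Of 9 tested carriers and cytochrome c genes of 12, 2 and 2, 2 and 2, 1 and 1, and 3 and 2 moved in the 4 comparisons. The largest fall among them was Slc25a4, the adenine nucleotide carrier of heart and muscle, with 453 and 475 CPM in MEF, 252 to 366 on day 8 and 138 and 204 in ESC (-1.44 ± 0.17 between ESC and MEF, adjusted p = 5.11e-06, edgeR). The 6 low-oxygen genes gave no call in the first 2 comparisons and 1 higher and 2 lower in ESC than on day 8, Cox4i2 being 1 of the 2 lower. Vc and DKG called no gene of any of these lists, and Tet1CD called 1 assembly factor, which was lower.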

How the data were processed

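Per the labels' protocols, Trizol was used to harvest RNA, and 1 ug of total RNA went into each Illumina TruSeq library. Per the submitters' processing notes, reads were handled with Bowtie and RSEM on mm10; neither versions nor strand setting is given in the sources used here. Each deposited file holds, per gene, the RSEM expected count, TPM and FPKM made by the authors, who normalized the last 2 within a library; the deposited FPKM values were not used. Expected counts were rounded to whole numbers and tested, and deposited TPM were used only for levels between genes.

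Identifiers were matched to GENCODE M21 (28756 matched, 511 not; the latter held at most 0.392% of a library's counts). A second identifier that fits the rule for Atp5o was not used, and 8 non-coding genes with fitting symbols were left out. In R 4.3.3, edgeR 4.0.16 fitted the 28 replicated libraries in 14 groups together (TMM factors, filterByExpr with a minimum count of 10, glmQLFit, glmQLFTest), with Benjamini-Hochberg adjustment over all genes tested and a threshold of 0.05. The 3 single libraries entered no test. DESeq2 1.42.0, limma 3.58.1 on log2(TPM + 1), other scalings, no filter, a threshold of 0.01, replicate blocks and leaving out each library were the alternatives. Only the edgeR fit of ESC against MEF was tried on simulated data, with 1 common dispersion and no shared deviation of same-numbered libraries. The other fits and comparisons were not simulated. CPM are counts scaled to TMM library sizes, and counting error alone is covered by the limit of 3 counts for a count of 0. Levels are given as each library's value or as the lowest, median and highest, and changes with the SE of the fit.

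Same-numbered libraries deviated together within a day (correlations of their deviations from the group means 0.356 to 0.504 over 15 pairs of groups on day 3 and 0.345 to 0.687 over 15 on day 8), but not across days (-0.00838 to 0.178 over 36) nor reliably between MEF and day 3 (0.062 to 0.159) or MEF and day 8 (-0.0101 to 0.305). The pairing comes from these data, since the labels give only the numbers.

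The named members were, for each comparison and complex, the 2 called members with the largest rise and the 2 with the largest fall, or the one with the lowest p where none was called, and always the isoform families, the Sdh genes and the most and least abundant member of each complex; other called members are named with their fold change only. Genes of other lists are named where their change was the largest called. The members and all lists (assembly factors, mitochondrial ribosomal proteins, tricarboxylic acid cycle, biogenesis regulators, carriers, glycolysis, low-oxygen genes, markers) were chosen with earlier results of these data known. The values of 1 complex I member are not reported here, although it is in all counts.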

Additional observations from a re-analysis of the deposited data

How the results depend on the processing

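No alternative turned the direction of any named member: of 378 alternative values for 42 results, 333 stayed on their side of the threshold and 45 no longer passed it. The 378 do not count each fit without 1 library singly, so the 45 understate the calls lost in such fits, which are described with the comparisons above. Calls of members between ESC and MEF (25) numbered 14 at an adjusted p under 0.01, 39 by library totals alone and 11 to 33 without 1 library. Between day 3 Flag cells in DMSO and MEF (8) they numbered 2 at 0.01, 4 with RLE factors, 25 by library totals, 3 with no filter, 18 by limma and 1 to 3 without 1 library. From day 3 to day 8 (16) they numbered 7 at 0.01, 9 with no filter and 10 to 18 without 1 library; between ESC and day 8 (30), 18 to 36 without 1 library. With the replicate block within days the counts were 15 (day 3 against MEF), 27 (day 8 against day 3) and 1 (Tet1CD), and with 1 block per number across days, where the pairing did not hold, 29, 11, 21 and 33 for the first 4 comparisons. Vc and DKG stayed at 0 under every setting run. The causes were not tested. With 2 libraries a group and at most 6818060 counts in each, small changes could not be resolved, and the expected counts of members with near copies depend on how reads were divided.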

Other observations

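Among the MEF libraries, marker genes of macrophages and blood (6 genes) summed to 2153 CPM in library 0824 and 457 CPM in library 0826. The members' share of counts was 0.697% and 0.708% in the same libraries. One of the 12 day 8 libraries, from Tet1CD cells in Vc, had a summed level of these markers of 796 CPM, where the median of the 12 was 9.74. The highest level in a Flag library was 12.6 CPM.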
